A study of Mus musculus with 10 samples.

Results

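Apolipoproteins are the protein parts of the particles that carry cholesterol and triglyceride in blood. The transcripts of 9 apolipoprotein genes, of 55359 genes in the deposited table, were followed in C2C12 cells after knockdown of *Fndc1*. These 9 genes were chosen by symbol, and *Apoa1*, *Apoa2*, *Apob*, *Apoc1*, *Apoc3*, *Apoc4* and *Apoh* were selected on their higher counts in the si-*Fndc1* libraries. *Apoe* and *Apod*, which many cell types outside the liver also make, were taken beside them for comparison. Because these same libraries were used to choose the members, their levels are given as a description, without a test.

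C2C12 is an established mouse myoblast line whose cells fuse into myotubes when serum is lowered. By the sample records the cells were grown with 20% FBS, whereas the paper's methods give a lower FBS content for C2C12. The cells were transfected with 100 nM of siRNA, either a control siRNA (si-Control, 5 libraries) or an siRNA against *Fndc1* (si-*Fndc1*, 5 libraries). According to the sample labels both groups were then kept in 2% horse serum for 4 days, whereas the series description gives another time point. Knockdown was transient, in a single cell line, and neither the labels nor the sequencing methods say of these libraries whether they came from separate cultures, so p-values measure only the spread between these libraries. The methods count fewer libraries than the labels list and do not say which ones, and every deposited library was used here.

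In mammals most plasma apolipoproteins are secreted by hepatocytes, with a further contribution from the small intestine for some of them. *Apob* is the structural backbone of VLDL and LDL, *Apoa1* and *Apoa2* are the main proteins of HDL, and the small C apolipoproteins exchange between particles and tune lipases and receptor uptake. *Apoe* is a ligand of endocytic lipoprotein receptors that macrophages, glia and other cells also secrete, while *Apod* is a lipocalin found in many tissues.

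Total counts were 66771605 to 75995168 per si-Control library and 56332844 to 72839369 per si-*Fndc1* library. The deposited FPKM of *Fndc1*, the targeted gene, was 27.8 ± 2.04 (SD, n = 5) in si-Control and 20.9 ± 1.70 (SD, n = 5) in si-*Fndc1*, with no overlap between the groups. Transcripts of muscle were abundant in both groups, and the summed level of 10 muscle markers was 10489 to 11962 counts per 1000000 counts of the library (CPM) in si-Control and 9724 to 11747 CPM in si-*Fndc1*. Averaged over the 10 libraries, 13548 genes reached an FPKM of 0.5 and were tested, and 4663 (34.4%) differed at an adjusted p-value under 0.05 in edgeR's quasi-likelihood test, 2338 (17.3%) of them upwards and 2325 (17.2%) downwards. For 1728 of these 13548 genes (12.8%) the CPM of every si-*Fndc1* library lay above that of every si-Control library. Small counts were unevenly spread, with 961 to 1142 genes per library at a count of 4 but only 362 to 437 at 3 and 201 to 247 at 5. A count of a few therefore may not stand for as many separate fragments, and intervals given for counts cover counting error only.

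Several members sit in a pair of gene clusters and the others lie alone, by the coordinates the deposited table lists. The table names no build, and the submitters' processing notes name GRCm39. *Apoa1* (ENSMUSG00000032083, chromosome 9, 46139878 to 46141764, plus strand) and *Apoc3* (ENSMUSG00000032081, chromosome 9, 46144231 to 46146934, minus strand) lie 2467 bases apart, with *Apoa4* and *Apoa5* next to them. *Apoe* (ENSMUSG00000002985, chromosome 7, 19430034 to 19433113), *Apoc1* (ENSMUSG00000040564, chromosome 7, 19423406 to 19426585) and *Apoc4* (ENSMUSG00000074336, chromosome 7, 19412008 to 19415404) share the minus strand of another cluster, which also holds *Apoc2*. *Apoa2* (ENSMUSG00000005681) is at 171052623 to 171053948 on chromosome 1 and *Apob* (ENSMUSG00000020609) at 8027648 to 8066835 on chromosome 12. *Apoh* (ENSMUSG00000000049) is at 108234180 to 108305222 on chromosome 11 and *Apod* (ENSMUSG00000022548) at 31115010 to 31133626 on chromosome 16.

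Since 7 of the members are higher together, the sequence before their transcription start sites is shown for the reader to compare. RefSeq promoters of GRCm38.p6, each of 250 bases before to 50 bases after a start, were at hand for 7 of the 9 members (10 promoters). The 120 bases before the start are printed 5′ to 3′ on the gene's strand, for the main HDL protein (*Apoa1*), the liver-type members with the smallest ratios between the groups (*Apoh* and *Apob*), and *Apoe* at its most upstream start. Capitals mark matches to CAAAGNNCA (an HNF4-type motif), TTGCNNAA (a C/EBP-type motif), searched on both strands, or to the letters TATAAA of the TATA box, searched likewise.
*Apoa1*, GRCm38.p6 chr9:46228510-46228629, plus strand: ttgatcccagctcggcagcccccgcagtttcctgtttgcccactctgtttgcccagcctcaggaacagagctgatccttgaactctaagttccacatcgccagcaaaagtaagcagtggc
*Apoh*, GRCm38.p6 chr11:108395177-108395296, plus strand: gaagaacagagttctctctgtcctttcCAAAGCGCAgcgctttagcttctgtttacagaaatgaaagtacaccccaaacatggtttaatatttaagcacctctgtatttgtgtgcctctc
*Apob*, GRCm38.p6 chr12:7977557-7977676, plus strand: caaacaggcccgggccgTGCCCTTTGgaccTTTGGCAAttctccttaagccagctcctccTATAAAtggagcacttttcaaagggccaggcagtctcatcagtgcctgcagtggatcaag
*Apoe*, GRCm38.p6 chr7:19699189-19699308, minus strand: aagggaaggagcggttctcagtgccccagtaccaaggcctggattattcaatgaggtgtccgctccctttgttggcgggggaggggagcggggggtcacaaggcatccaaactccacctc
In these stretches *Apoh* holds the HNF4-type letters starting 93 bases before its start, and *Apob* holds them starting 103 bases before its start, on the opposite strand. The *Apob* stretch also has the C/EBP-type letters and a TATA box, starting 90 and 60 bases before the start, and none of the motifs overlap there. The *Apoa1* and *Apoe* stretches hold none of these letters. Over the whole 300 bases, the HNF4-type letters stood in 2 of the 10 member promoters and in 6.36% of 32851 promoters in the RefSeq table, and the C/EBP-type letters in 2 of 10 and 10.8%. The TATA box stood in 3 of 10 and in 13.6%. A match is a description of letters and shows no binding.

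The members were first compared by level within each group, on the FPKM scale, which divides counts by length. In si-Control, *Apoe* was the highest of the 9 members, at 5.62 ± 0.932 FPKM (SD, n = 5), and no other member reached its lowest library. *Apod* followed at 0.451 ± 0.0877 FPKM, and *Apoa2*, *Apoa1*, *Apoh*, *Apoc1*, *Apoc3*, *Apob* and *Apoc4* had means from 0.351 down to 0.00175 FPKM. Among these, the libraries of each gene overlapped with those of the next gene in the order, except *Apob* and *Apoc4*. In si-*Fndc1* the order was another: *Apoa2* had the highest mean (30.6 ± 14.1 FPKM), then *Apoa1* (18.5 ± 7.91) and *Apoe* (16.1 ± 1.66). *Apoa2* was above *Apoa1* in 5 of 5 si-*Fndc1* libraries although their ranges overlapped, and *Apoa1* was above *Apoe* in 3 of 5. *Apoc1* (5.99 ± 2.41 FPKM), *Apoc3* (3.88 ± 1.84) and *Apoh* (2.61 ± 1.16) came next with overlapping ranges, below every library of *Apoe*. *Apod* (0.580 ± 0.0517 FPKM), *Apoc4* (0.410 ± 0.209) and *Apob* (0.332 ± 0.223) were the lowest, and their ranges also overlapped.

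In si-*Fndc1* the HDL proteins had the most counts of the liver-type transcripts. *Apoa1*, which activates LCAT and takes up cholesterol from cells, had 0, 21, 59, 0 and 37 counts in si-Control libraries 1 to 5 and 1020, 2753, 2190, 2188 and 753 in si-*Fndc1* libraries 1 to 5. Its level was 0.336 ± 0.360 CPM (SD, n = 5) in si-Control and 25.6 ± 11.1 CPM (SD, n = 5) in si-*Fndc1*, a log2 ratio of group means of 6.25 ± 0.75 (SE). *Apoa2* had 0, 24, 26, 0 and 26 counts in si-Control and 897, 1623, 1843, 1733 and 357 in si-*Fndc1*, a log2 ratio of 6.40 ± 0.66 (SE). In both genes the groups were far apart, si-Control libraries 1 and 4 had no count, and si-*Fndc1* libraries 1 and 5 were the lowest of their group.

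*Apob*, whose protein stays with VLDL or LDL through the life of the particle, had 22, 61, 83, 50 and 75 counts in si-Control and 142, 212, 633, 635 and 171 in si-*Fndc1*. The groups did not overlap, but the si-*Fndc1* libraries fell into a high pair (3 and 4) and 3 lower ones. Its log2 ratio of mean CPM was 2.66 ± 0.52 (SE, n = 5 per group), lower than that of any other liver-type member. *Apoh*, a phospholipid-binding plasma glycoprotein also called beta-2-glycoprotein I, had 20, 29, 41, 25 and 32 counts in si-Control and 256, 413, 419, 463 and 84 in si-*Fndc1*. Its log2 ratio was 3.49 ± 0.34 (SE), and si-*Fndc1* library 5 was nearest to the controls. *Prkca*, a kinase gene on the opposite strand, overlaps *Apoh* in the table, and whether the counting used strand is not stated in the sources used here. *Prkca* had 3321 to 3651 counts in si-Control and from 2788 to 3726 in si-*Fndc1* and did not pass the test (log2 fold change 0.02 ± 0.05 SE).

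The C apolipoproteins had low counts in si-Control throughout. *Apoc1*, which hinders the uptake of remnants, had 3, 16, 12, 10 and 10 counts in si-Control and 242, 432, 482, 460 and 129 in si-*Fndc1*, a log2 ratio of 5.12 ± 0.40 (SE). *Apoc3*, an inhibitor of lipoprotein lipase, had 0, 8, 4, 0 and 12 counts in si-Control and 160, 504, 382, 370 and 124 in si-*Fndc1*, a log2 ratio of 5.99 ± 0.78 (SE). *Apoc4* had 0, 0, 0, 0 and 3 counts in si-Control and 41, 146, 92, 98 and 33 in si-*Fndc1*. Its 410 counts in si-*Fndc1* against 3 in si-Control made a ratio of 144 after scaling to the TMM library sizes, with a 95% counting interval of 48.8 to 699. Another gene, *Gm44805*, overlaps *Apoc4* in the table, with at most 1 count in si-Control and at most 27 in si-*Fndc1*. In all 3 genes every si-*Fndc1* library stood above every si-Control library.

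*Apoe* was well measured in both groups, with 1094, 1004, 1101, 970 and 646 counts in si-Control and 2608, 2506, 2957, 3100 and 2001 in si-*Fndc1*. Its level was 13.4 ± 2.21 CPM (SD, n = 5) against 38.6 ± 4.15 CPM (SD, n = 5), 2.88 times as high, a log2 ratio of 1.53 ± 0.13 (SE), without overlap. *Apod* had 113, 74, 98, 118 and 75 counts in si-Control and 126, 106, 127, 127 and 97 in si-*Fndc1*. Its mean was 1.29 times as high in si-*Fndc1* (1.33 ± 0.244 against 1.72 ± 0.146 CPM, SD, n = 5 each), and the groups overlapped, with 1 si-*Fndc1* library inside the range of si-Control. The *Apoe* difference was thus intermediate between those of *Apod* and of the 7 liver-type transcripts. Of the 9 members, 8 had every si-*Fndc1* library above every si-Control library, against 12.8% of all tested genes, but the members were chosen for that direction. A mean FPKM of at least 0.5 was reached by 7 of the 9 members and not by *Apob* and *Apoc4*.

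**Figure D1:**
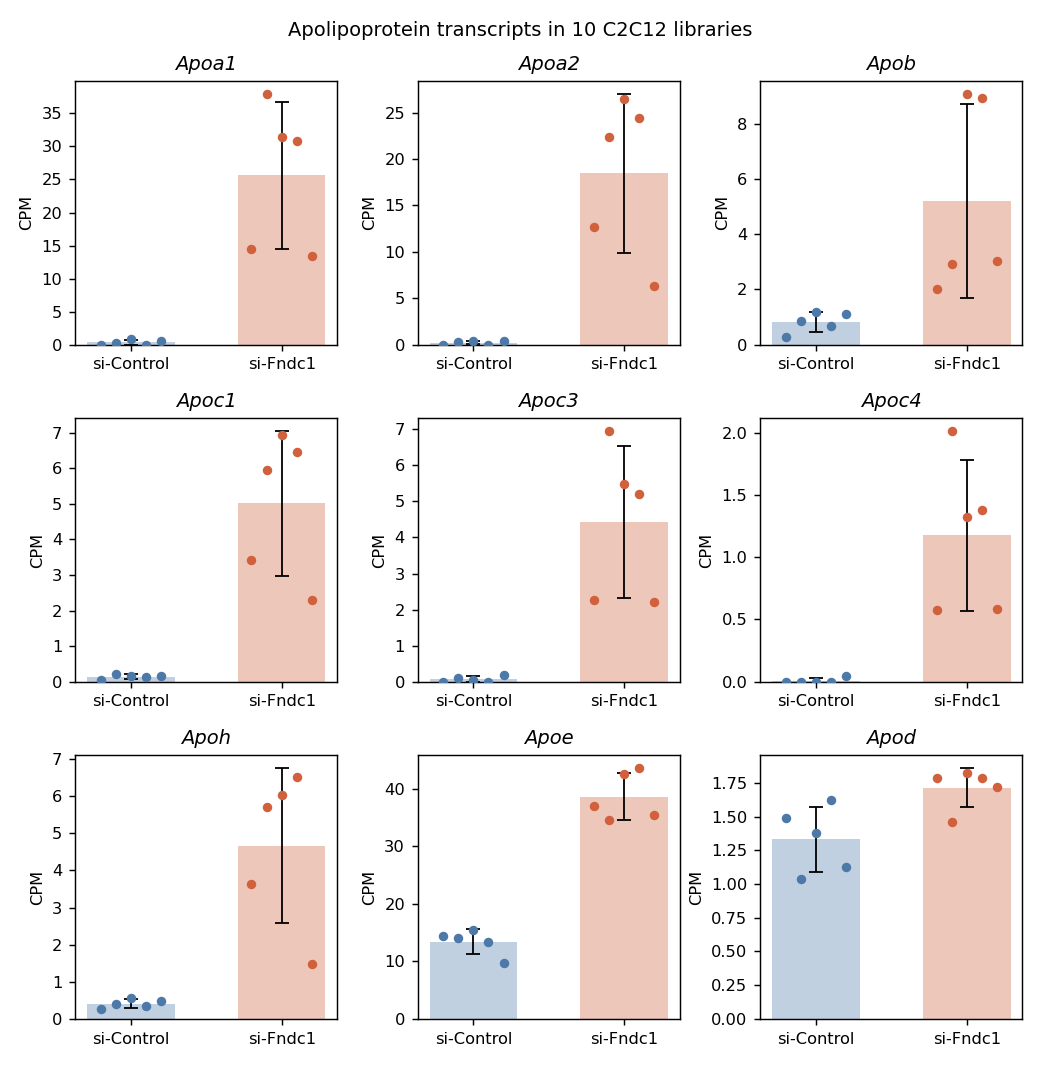
Level of each apolipoprotein transcript in CPM (linear axis from 0, a scale for each gene). Points are the 5 libraries of each group, in library order from left to right, bars are means and error bars are SD. The groups overlap for *Apod* and are apart for the other 8 genes.

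The summed count of the 7 liver-type transcripts gives the size of the difference as one value per library. It was 45, 159, 225, 85 and 195 in si-Control and 2758, 6083, 6041, 5947 and 1651 in si-*Fndc1*. On the CPM scale the means were 2.02 ± 1.11 and 64.5 ± 28.0 (SD, n = 5 each), a ratio of 32.0 and a log2 ratio of 5.0 ± 0.45 (SE). In si-*Fndc1* the sum made up 0.00293% to 0.00856% of all counts of a library, a share that takes no account of transcript length. On the FPKM scale, mean levels there were 30.6 for *Apoa2* and 18.5 for *Apoa1*, beside 20.9 for *Fndc1*. In bulk samples such as these, a few cells with much of a transcript and many cells with little of it cannot be told apart.

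The make-up of that sum, given here as a description since it comes from the same counts, was as follows. In the 5 si-*Fndc1* libraries *Apoa1* supplied 40.2 ± 4.81% (SD) of the summed count, *Apoa2* 28.1 ± 4.20%, *Apoc1* 7.88 ± 0.60%, *Apoc3* 6.83 ± 1.03% and *Apoc4* 1.81 ± 0.386%. *Apob* supplied 8.03 ± 3.44%, from 3.49% to 10.7%, and *Apoh* 7.18 ± 1.53%. Together, *Apoh* and *Apob* were 10.3% to 18.5% of the sum in si-*Fndc1* but 54.9% to 93.3% in si-Control. In si-Control libraries 1 and 4, where *Apoa1*, *Apoa2*, *Apoc3* and *Apoc4* had no count, only *Apob*, *Apoh* and *Apoc1* remained. The log2 ratio of mean CPM was 2.99 for *Apoh* and *Apob* summed and 6.14 for the sum of the other 5.

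**Figure D2:**
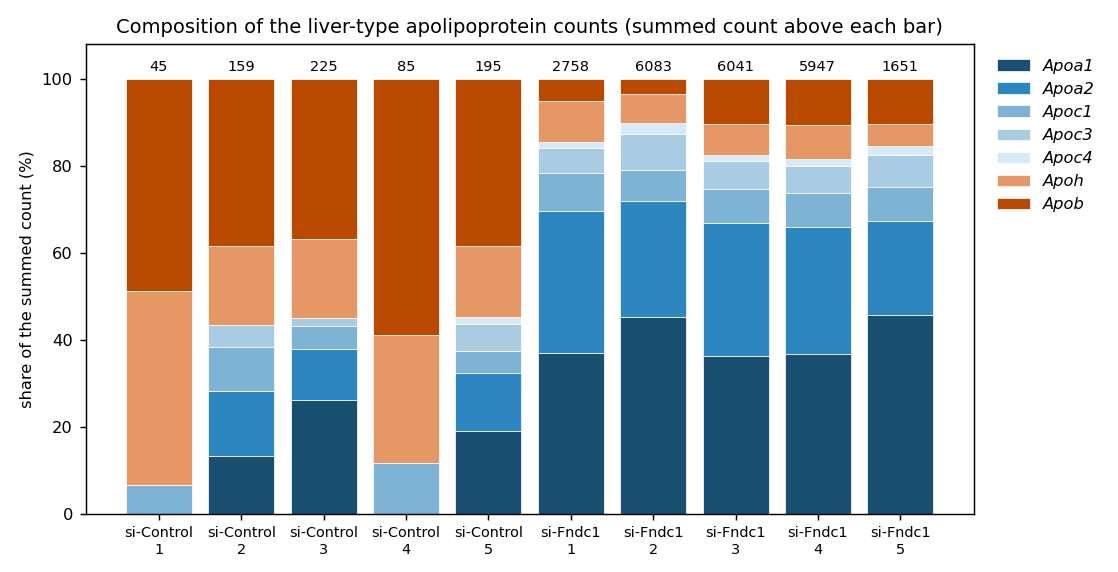
Share of each liver-type transcript (in percent) in the summed count of the 7, for each library, with the summed count above the bar. *Apoh* and *Apob* (orange and brown) take 54.9% to 93.3% of each si-Control bar and 10.3% to 18.5% of each si-*Fndc1* bar.

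The members also differed in how they varied among the 5 si-*Fndc1* libraries. The summed CPM of the liver-type transcripts was 39.0, 84.0, 86.8, 83.7 and 29.3 in libraries 1 to 5, a 2.97-fold range. *Apoa1*, *Apoa2*, *Apoc1*, *Apoc3*, *Apoc4* and *Apoh* were each lower in libraries 1 and 5 than in libraries 2, 3 and 4. Their closeness was described by the SD of log2(gene count / summed count) over the 5 libraries, which was 0.11 for *Apoc1*, 0.17 for *Apoa1*, 0.21 for *Apoc3*, 0.23 for *Apoa2*, 0.29 for *Apoc4* and 0.32 for *Apoh*. These genes are part of the sum, so their SD is lowered by construction, most of all for *Apoa1*. Against the sum without itself the SD was 0.29 for *Apoa1* and 0.12 for *Apoc1*. *Apob* varied otherwise, at an SD of 0.74, with 2.01, 2.93, 9.10, 8.93 and 3.03 CPM in libraries 1 to 5. *Apoe* had an SD of 0.67 and *Apod* of 0.78, where the median was 0.75 over the 14660 genes with at least 20 counts in each si-*Fndc1* library. Of these genes 1727 had a smaller SD than *Apoe*, 6555 than *Apob* and 9304 than *Apod*. *Apoe* was 36.9, 34.6, 42.5, 43.6 and 35.5 CPM in these libraries, a 1.26-fold range. Per count of the liver-type sum, there were 0.412 to 1.21 *Apoe* counts in si-*Fndc1* and 3.31 to 24.3 in si-Control.

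**Figure D3:**
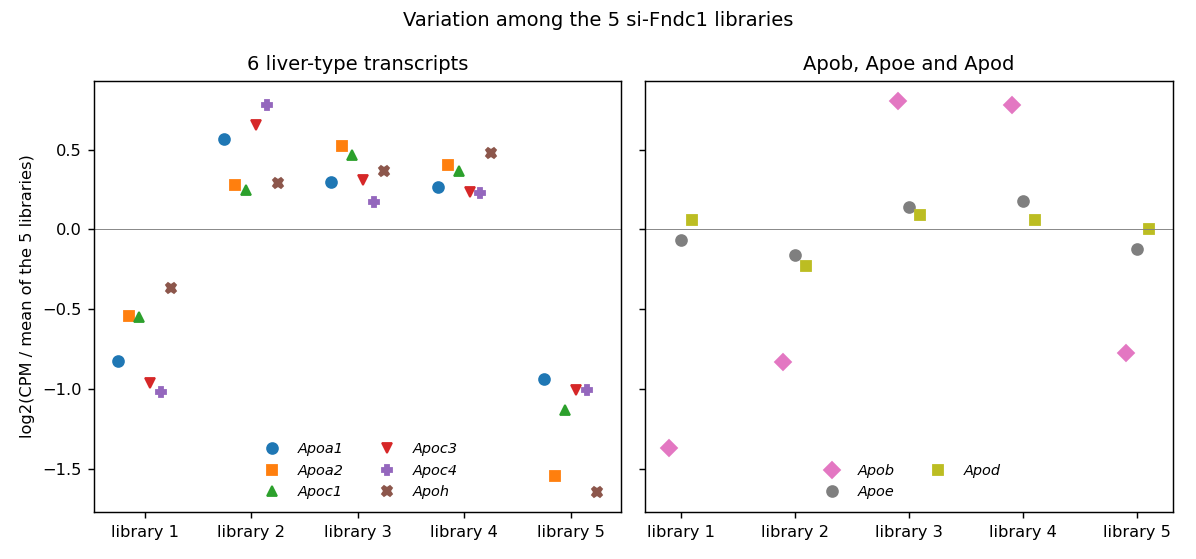
Level of each member in the 5 si-*Fndc1* libraries, as log2 of its CPM over its own mean in these libraries. The 6 transcripts on the left are below their mean in libraries 1 and 5 and above it in libraries 2, 3 and 4, while *Apob* (right) is high only in libraries 3 and 4 and *Apoe* and *Apod* stay near 0.

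The 10 genes outside the members whose counts kept closest to the summed liver-type count in the si-*Fndc1* libraries, by the same SD, included 4 of the 20 hepatocyte markers. Among them were *Serpina1a* (SD 0.10) and *Serpina1b* (0.12), which encode alpha-1-antitrypsin, *Fgb* (0.11), a fibrinogen chain, and *Pzp* (0.15), a plasma protease inhibitor. The enzymes were *Cps1* (0.13) of the urea cycle, *Mat1a* (0.14) of S-adenosylmethionine synthesis and *Adh1* (0.16), an alcohol dehydrogenase. *Slc38a4* (0.12), an amino acid transporter, and *1300017J02Rik* (0.15) were also among the 10. Each of the 10 had at most 58 counts in any si-Control library, and mean CPM was at least 23.2 times as high in si-*Fndc1*. Among the first 100 genes in this order were 15 of 20 hepatocyte markers, a list chosen with these data known. These are descriptions over 5 libraries of one group, which share their depth and preparation.

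Markers of other cell types were read beside the members. The 20 hepatocyte markers summed to 0.198, 3.53, 11.8, 0.316 and 20.0 CPM in si-Control libraries 1 to 5 and to 239, 420, 415, 409 and 123 CPM in si-*Fndc1*. All 20 had a count in every si-*Fndc1* library, and all 19 of them that were tested passed upwards, against 17.3% of all tested genes. For 18 of these 19 the si-Control level alone was below the filter, so they had to differ. Albumin (*Alb*) had 8, 99, 357, 0 and 492 counts in si-Control and 7687, 11579, 9004, 10794 and 1763 in si-*Fndc1*. Libraries 1 and 5 of si-*Fndc1* were thus the lowest for hepatocyte markers as well as for the liver-type apolipoproteins. In si-Control, libraries 1 and 4, which lacked *Apoa1*, *Apoa2* and *Apoc3*, had a count for 3 and 2 of the 20 markers. The summed apolipoproteins per summed hepatocyte marker were 0.163 to 0.239 in si-*Fndc1* on the CPM scale and 0.147 to 3.70 in si-Control, where *Apob* and *Apoh* dominate the sum. The part of these transcripts in the apolipoprotein result was not tested.

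**Figure D4:**
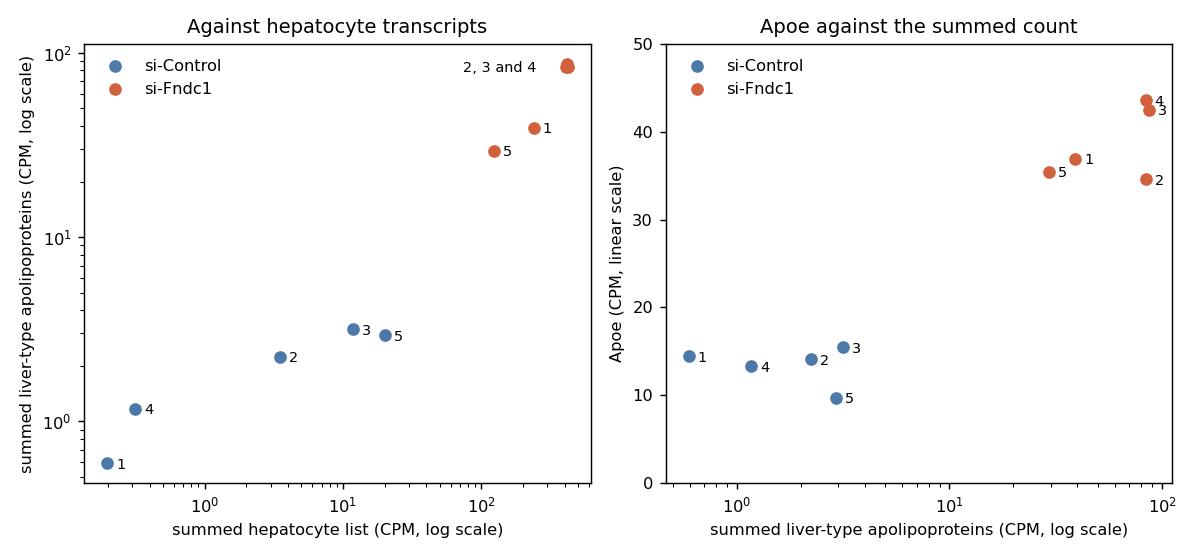
Left, summed CPM of the 7 liver-type apolipoproteins against summed CPM of 20 hepatocyte markers in each library (both axes logarithmic, numbers are libraries of the group). Right, *Apoe* CPM (linear axis from 0) against the same sum (logarithmic axis), where *Apoe* lies between 34.6 and 43.6 CPM in si-*Fndc1* while the sum lies between 29.3 and 86.8 CPM.

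Marker lists of other cell types were read in the same way, and their part in the result was likewise not tested. Markers of intestinal epithelium, which also makes *Apoa1*, *Apob* and *Apoa4*, summed to 0.345 to 0.851 CPM in si-Control and 0.495 to 1.09 CPM in si-*Fndc1*, with *Cdx2* and *Sis* at 0 in every library. In each group 6 of these 10 markers had a count. *Fabp2*, the intestinal fatty acid binding protein, had 0 in every si-Control library and 4, 16, 23, 19 and 12 in si-*Fndc1*. *Rbp2* had 3 counts in si-*Fndc1* library 2 alone. Only control libraries held counts of *Lct* (0, 4, 8, 12 and 4) and of *Mep1a* (7, in library 2). *Alpi*, *Cdhr5*, *Vil1* and *Cdx1* had counts in both groups, with overlapping ranges. Markers of visceral endoderm, the embryonic epithelium that makes the same transcripts, summed to 17.2 to 20.3 CPM and 16.4 to 18.1 CPM, with *Afp*, *Sox17* and *Spink1* at 0 in all libraries. Macrophage markers, of interest for *Apoe*, summed to 1.21 to 2.10 CPM in si-Control and 1.21 to 2.55 CPM in si-*Fndc1*, with *Adgre1* and *Ptprc* at 0. Of these 9 markers 3 had a count in si-Control and 6 in si-*Fndc1*. *Lyz2* (19 counts), *C1qa* (8) and *C1qb* (15) had theirs in si-*Fndc1* library 4 alone and *C1qc* (11) in library 2 alone. *Csf1r* had 14 to 36 counts in si-Control and from 21 to 53 in si-*Fndc1*. *Aif1* went the other way, with 3 and 4 counts in si-Control libraries 2 and 5 and 0 in every si-*Fndc1* library. *Cd68* had 60 to 110 counts in si-Control and from 47 to 86 in si-*Fndc1*. It was the only macrophage marker tested and did not pass (log2 fold change -0.18). Adipocyte markers, of which *Adipoq*, *Plin1*, *Lep*, *Cfd* and *Retn* were at 0, did not pass 0.124 CPM in any library. Erythroid markers summed to 0.631 to 1.67 CPM in si-Control and 1.54 to 2.35 CPM in si-*Fndc1*, and *Hbb-bs* had at most 1 count in si-Control and from 0 to 36 in si-*Fndc1*. *Hba-a1*, with 28 to 100 counts in si-Control and from 65 to 116 in si-*Fndc1*, was tested and did not pass (log2 fold change 0.42). *Hba-a2* also overlapped, with 0 to 24 and 9 to 53 counts. The part of these markers in the results was not tested.

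The rest of the lipoprotein pathway was read from 6 lists of 88 genes in all, of which 87 were in the table and 46 were tested. In edgeR's quasi-likelihood test 10 rose and 12 fell at an adjusted p-value under 0.05, so 22 of 46 passed, where 34.4% of all tested genes did. *Apoa4*, *Apoa5* and *Clu* reached the filter only through si-*Fndc1*, and without them 7 rose and 12 fell, or 19 of 43. Corrected for GC and length, 10 rose and 6 fell of 45 tested. With this correction 2552 of all 11185 genes were called, 1327 upwards and 1225 downwards. These lists, too, were written with earlier results of these data known.

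Among the other apolipoproteins 6 of 9 tested genes rose and 0 fell, against 17.3% and 17.2% of all tested genes. At an unadjusted p-value under 0.05, 0 of these 9 were lower in edgeR or DESeq2. *Apoa4*, a partner of triglyceride-rich particles, had at most 4 counts in a si-Control library and 107 to 536 in si-*Fndc1* libraries, a log2 fold change of 7.49 ± 0.80 (SE; adjusted p = 7.56e-05, edgeR). *Apoa5*, which promotes lipolysis by lipoprotein lipase, had at most 6 counts in si-Control and from 95 to 437 in si-*Fndc1* (7.07 ± 0.71 SE; adjusted p = 5.27e-05, edgeR). *Clu*, or apolipoprotein J, a secreted chaperone, had 0 to 35 counts in si-Control and from 96 to 450 in si-*Fndc1* (4.09 ± 0.67 SE; adjusted p = 0.000916, edgeR). These 3 genes passed the filter on low values only through their si-*Fndc1* libraries, so they had to differ. *Apoo* and *Apool*, which encode subunits of the mitochondrial MICOS complex despite their names, and *Apol9a*, a member of the APOL family, rose by 0.29 to 0.33 on the log2 scale. The calls of *Apoo* and *Apool* were lost when GC content and transcript length were corrected for (log2 fold changes of -0.02 and 0.08). *Apoc2*, the activator of lipoprotein lipase, lies 142 bases from *Apoc4* and was not tested. It had no count in any si-Control library and 9, 72, 51, 0 and 0 in si-*Fndc1*. Chosen after their values were seen, *Apof* (0 to 12 counts against 33 to 203), *Apom* (0 to 15 against 16 to 62) and *Apon* (3 to 9 against 18 to 130), all below the filter, also had no overlap between si-Control and si-*Fndc1*. Of all tested genes, 12.8% had every si-*Fndc1* library above every si-Control library. Other genes below the filter overlapped, such as *Apol6* (90 to 236 against 50 to 174) and *Apol7a* (12 to 46 against 23 to 49). *Apol7e* had counts in si-Control libraries alone.

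Among 7 tested genes that load and secrete *Apob* particles 1 rose and 0 fell, against 17.3% and 17.2% of all tested genes. At an unadjusted p-value under 0.05, 0 of these 7 were lower by either tool. *Mttp*, the microsomal transfer protein that loads lipid onto nascent *Apob*, was at 4.63 ± 0.404 FPKM in si-Control and 5.69 ± 0.229 FPKM in si-*Fndc1*, and rose by 0.31 ± 0.06 (SE) on the log2 scale (adjusted p = 0.00355, edgeR). The 6 other assembly genes tested did not pass. Of 7 lipases and transfer genes, *Lcat*, which esterifies HDL cholesterol, rose by 1.14 ± 0.24 (SE; adjusted p = 0.0038, edgeR), from 39 to 93 counts in si-Control to 92 to 177 in si-*Fndc1*. *Pltp*, the phospholipid transfer protein, was at 35.6 ± 0.778 and 36.0 ± 2.02 FPKM, and *Lpl*, lipoprotein lipase, at 1.18 ± 0.0977 and 1.31 ± 0.146 FPKM, and neither passed the test (adjusted p = 0.687 and 0.183, edgeR).

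Among 10 receptor genes 1 rose and 5 fell, against 17.2% of all tested genes that fell. *Lrp1*, the large endocytic receptor for *Apoe* remnants, went from 165 ± 7.39 to 116 ± 7.35 FPKM (SD, n = 5) and fell by 0.50 on the log2 scale (SE 0.05; adjusted p = 4.36e-05, edgeR). *Gpc1*, a heparan sulfate proteoglycan, fell by 0.43 (adjusted p = 1.21e-05, edgeR), and *Sdc1*, another, rose by 0.15 (adjusted p = 0.0112, edgeR). With the GC and length correction these calls were kept at log2 fold changes of -0.10 for *Lrp1*, -0.15 for *Gpc1* and 0.28 for *Sdc1*. *Scarb1*, the HDL receptor, fell by 0.22, a call lost with the GC and length correction. *Vldlr* did not pass, with a log2 fold change of -0.10.

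Of 9 cholesterol efflux and LXR genes tested, 6 fell and 1 rose, against 17.2% and 17.3% of all tested genes. *Abca1*, which loads lipid onto *Apoa1*, went from 3.53 ± 0.130 to 2.45 ± 0.195 FPKM (SD, n = 5), and fell by 0.52 on the log2 scale (SE 0.06; adjusted p = 0.000113, edgeR). *Abca7* fell by 0.49, *Abcg1*, a sterol transporter to HDL, by 0.34, *Rxra* by 0.25 and the lysosomal transporter *Npc1* by 0.21, while *Npc2* rose by 0.18. With the GC and length correction *Abca7* and *Abcg1* were still called, at -0.21 and -0.19. The falls of *Rxra* and *Npc1* were not called with the GC and length correction (log2 fold changes of -0.03 and -0.08). *Nr1h3*, or LXR-alpha, of which *Apoe* and *Abca1* are known targets, was below the filter, with 42 to 110 counts in si-Control and from 49 to 73 in si-*Fndc1*. *Nr1h2*, or LXR-beta, was among the 6 that fell, by 0.26 (adjusted p = 0.0175, edgeR), from 15.6 ± 1.78 to 12.9 ± 0.629 FPKM (SD). It is named after its values were seen, and its value with the GC and length correction is not given here.

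Only 4 of the 18 hepatic transcription factor genes were tested, *Cebpa*, *Cebpb*, *Nr2f1* and *Nr2f2*. In edgeR's test 0 of these 4 passed, where 34.4% of all tested genes did, and 0 had an unadjusted p-value under 0.05. DESeq2 also called 0, with 1 (*Nr2f2*, named after its value was seen) at an unadjusted p-value under 0.05. *Cebpa* had 2401, 202, 2552, 2312 and 2347 counts in si-Control and from 1468 to 1842 in si-*Fndc1*. With si-Control library 2 so far from the others, its log2 fold change of -0.11 ± 0.47 (SE) does not settle whether it differed. *Hnf4a*, the nuclear receptor best known for driving liver apolipoprotein genes, was not tested, with 0, 0, 4, 0 and 4 counts in si-Control and 69, 56, 91, 88 and 23 in si-*Fndc1*. *Foxa2* had 0 counts in si-Control and at most 12 in si-*Fndc1*, at the edge of detection at this depth.

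**Figure D5:**
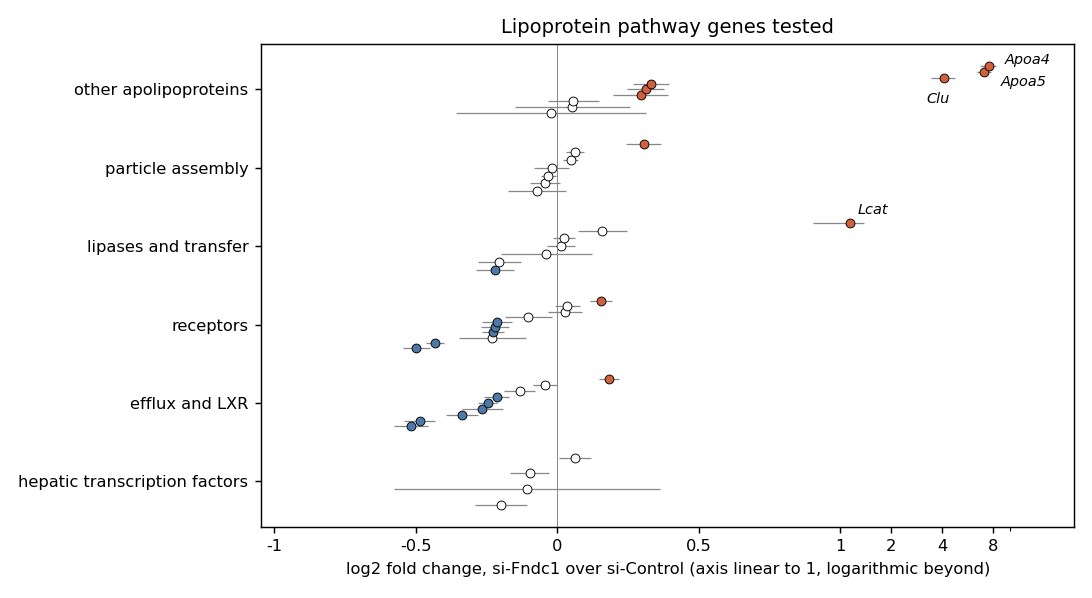
Log2 fold change (si-*Fndc1* over si-Control, with SE bars) of each tested gene of the 6 lipoprotein pathway lists. The axis is linear between -1 and 1 and logarithmic beyond. Filled points passed an adjusted p-value of 0.05 (red rose, blue fell), open points did not. *Apoa4*, *Apoa5* and *Clu* lie far to the right of the other genes.

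The genes beside the members were examined last. The table places 36 other genes within 50 kb of a member, of which 17 were tested, 2 rose, 5 fell and 10 did not pass. The genes that rose were *Apoa4* and *Apoa5*, which reached the filter only through si-*Fndc1*, 5060 and 32997 bases from *Apoc3*. Without them 15 were tested, of which 5 fell and 0 rose by edgeR, 0 by DESeq2 and 1 (*Zpr1*) at an unadjusted p under 0.05. In edgeR 33.3% of these 15 were thus called, near the 34.4% among all tested genes, where 17.2% fell. *Sik3*, a kinase gene 4386 bases from *Apoa1*, fell by 0.34 (adjusted p = 0.00506, edgeR), and *Bud13*, past *Apoa5*, fell by 0.28. At the other cluster *Tomm40*, a mitochondrial import channel 2125 bases from *Apoe*, fell by 0.27 (adjusted p = 0.00364, edgeR), *Nectin2* by 0.45 and *Relb* by 0.15, and *Clptm1* did not pass (log2 fold change -0.06). Beside *Apoa2*, *Tomm40l*, *Adamts4*, *B4galt3* and *Ppox* did not pass, with log2 fold changes from -0.22 to 0.05, although *B4galt3* passed in DESeq2 (adjusted p = 0.042). *Zpr1* on chromosome 9 (0.10) and *Ppp1r2* (0.05) and *Gm41442* (0.16) near *Apod* did not pass. The calls of *Sik3*, *Bud13*, *Tomm40* and *Relb* were lost with the GC and length correction, and that of *Nectin2* was kept at a log2 fold change of -0.26. With this correction *Ppox* passed upwards and *Ppp1r2* downwards, and 3 neighbours rose and 3 fell in all. Without *Apoa4* and *Apoa5*, 1 rose and 3 fell of the 14 tested with this correction (28.6%), where 2552 of all 11185 genes were called. *Nr1i3*, a nuclear receptor of liver 6053 bases from *Apoa2*, was below the filter, with at most 6 counts in si-Control and from 27 to 103 in si-*Fndc1*, and is named after its values were seen.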

How the data were processed

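The authors deposited, for each of 55359 genes and 10 libraries, a read count without normalization and an FPKM value, listed as 0.0001 where the count is 0 and read here as 0. The paper's methods name TopHat, mm10 and htseq-count, the series description STAR and mm9, and the submitters' processing notes cutadapt 1.9, FastQC and GRCm39. Groups came from the sample titles and genotype labels, and 0 columns were left without a sample. Depth is given with the libraries.

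Members and gene lists were chosen with earlier results of these data known. CPM (counts per 1000000 counts) used TMM library sizes, and a log2 ratio is that of the group means, with an SE from the spread of the libraries. Genes averaging an FPKM of 0.5 or more over all libraries were tested with edgeR 4.0.16 (quasi-likelihood, TMM, no replicate term, Benjamini-Hochberg) in R 4.3.3, checked on simulated counts. DESeq2 1.42.0, other scalings and filters, a GC and length correction, a replicate block and leaving out each library were alternatives.

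Named genes were the members, in each pathway list the genes with an adjusted p-value under 0.05 (up to 6 by smallest p), pathway genes fixed by name, tested genes within 50 kb of a member, and the 10 genes closest to the liver-type sum. Some of them, and 1 of 4 motifs searched in the promoters, are not reported here. Libraries of a group differed by more than sampling noise in 20 of 20 pairs. Promoters were RefSeq's, and Python 3.11.15 with pandas 2.3.3 was used.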

Additional observations from a re-analysis of the deposited data

Results flagged for a closer look

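Among 38 groups of 5 values examined (levels and shares of the members, their sum and the hepatocyte list), 2 held a library far from the others. Chance alone flags about 1 in 20 groups if values are normally distributed and groups independent, which was not checked. Both were *Apoc4* in si-Control library 5, at 0.0451 CPM (3 counts) and 1.54% of the liver-type sum, where the other 4 si-Control libraries had no count. These are the same 3 counts as a level and as a share. With the other 4 values at 0, any count would be flagged.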

How the results depend on the processing

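The log2 ratio of the summed liver-type apolipoproteins (5.0) was 4.99 with total counts, 5.0 with RLE size factors, 5.84 with FPKM and 5.23 with medians, and 4.77 to 5.22 without single libraries. Leaving out single libraries gave 1.43 to 1.58 for *Apoe* and 0.29 to 0.45 for *Apod*. The log2 ratio of *Apoc4* could not be had with medians or without si-Control library 5, since the remaining control value is 0. Leaving out each library gave 4016 to 4626 genes called of all tested, 19 to 23 pathway genes and 6 to 9 neighbours. A GC and length correction (11185 genes) gave 2552 genes called of all tested. With this correction and a replicate block the counts were 1639 genes, 13 pathway genes and 3 neighbours, and with a mean FPKM of at least 5, where fewer genes were tested, 13 pathway genes and 3 neighbours.

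The correction turned *Apoo* (-0.0232), *Scarb1* (0.0167), *Tomm40* (0.0245) and *Ppp1r2* (-0.14, called only there), and with the replicate block *Apoo* (-0.0273), *Scarb1* (0.0159) and *Tomm40* (0.0248). The cause was not tested. Replicate numbers did not pair the libraries (correlations of deviations from -0.06 to 0.06, and 2 of 10 libraries closest to their own number), and the replicate block alone gave 3572 genes, 20 pathway genes and 6 neighbours called. With the block *Adamts4* was called (-0.17, adjusted p = 0.0267, edgeR). With the block and the correction together the calls of *Abcg1* (adjusted p = 0.0516, edgeR) and *Mttp* (0.24, adjusted p = 0.0540, edgeR) were lost. The call of *Apoo* was lost without any 1 of 8 libraries (all but si-Control 5 and si-*Fndc1* 2) and that of *Relb* without any 1 of 9 (all but si-*Fndc1* 3). Of 23 named genes called, 12 kept direction and call in all 17 alternatives that gave a value for them. Low counts limit *Apoc4*, *Apoc3* and *Apoc2* in si-Control.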
